A study of Mus musculus with 73 samples.

Results

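Translation initiation factors are the proteins that bring the ribosome to the start codon of an mRNA, and their genes were followed here in 8-cell mouse embryos and blastocysts. All rows of the expression table whose symbol begins with Eif and a digit from 1 to 6 were taken (57 of 25220 symbols), apart from the 4 Eif2ak genes, which encode kinases that act on eIF2. This left 53 genes, in groups from eIF1 to eIF6. The RNA-seq values came from 8 libraries of embryos of a hybrid C57BL/6 / C3H background cultured in KSOM medium. EGFP controls gave 3 libraries at the 8-cell stage and 2 at the blastocyst stage, and p150DN gave 3 at the 8-cell stage. p150, the Chaf1a product, is a subunit of the histone chaperone CAF-1, which deposits newly made histones H3 and H4 behind the replication fork, and p150DN is its dominant-negative version. The sources used here do not say how the proteins were introduced. The wider study is about histone H3.3, and its other 65 samples were not analysed here.

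In cap-dependent initiation, eIF4F gathers at the mRNA cap. Its parts are the cap-binding protein eIF4E, the scaffold eIF4G and the RNA helicase eIF4A, and the 4E-BP proteins block it by occupying the site on eIF4E that eIF4G uses. The trimeric GTPase eIF2 carries the initiator tRNA to the small ribosomal subunit and is recharged with GTP by eIF2B. eIF3 is the large scaffold on the small subunit, eIF1 and eIF1A support scanning, eIF5 triggers GTP hydrolysis by eIF2, eIF5B joins the subunits, and eIF6 keeps free large subunits from joining too early. Embryos begin with maternal mRNAs and translation factors from the oocyte and replace them from their own genome during cleavage.

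The counted total of each library was inferred from the FPKM of short RNA genes and lay between 16578221 and 22488477 fragments. Values are FPKM, counted fragments per kilobase of gene scaled by the counted total of the library. Comparisons between genes therefore rest on the gene lengths used, and comparisons between libraries rest on that scaling. A change in total RNA per embryo is not seen. In such pooled material, fewer cells of a type and less RNA per cell cannot be told apart. Chaf1a, the gene of the p150 subunit, lay at 27.7 to 30.2 FPKM in EGFP 8-cell embryos, 165 to 254 in p150DN embryos and 26.5 to 27.2 in blastocysts, in the direction of the labels. The p150DN libraries differed among themselves in the number of genes above 0, with 18412, 20465 and 21282 in replicates 1, 2 and 3 against 17310 to 18402 in EGFP 8-cell embryos. The sums of some marker lists moved with both comparisons. The summed FPKM of 7 trophectoderm markers was 101 to 119 in EGFP 8-cell embryos, 330 to 529 in p150DN embryos and 1110 to 1170 in blastocysts. Elf5 lay below 1 FPKM throughout, and Tfap2c did not rise (80.7 to 94, 64.9 to 76.3 and 74.2 to 92.2 FPKM). The sum of 5 inner cell mass and pluripotency markers was 342 to 498, 512 to 712 and 884 to 938 FPKM in the same order. Within that list Esrrb fell (44.8 to 49, 28.7 to 39.6 and 20.9 to 22.8 FPKM), and Klf4 was highest in p150DN embryos. The sum of 4 primitive endoderm markers overlapped between the groups (117 to 177, 102 to 146 and 143 to 151 FPKM). Its member Gata4 fell from at least 39.6 FPKM in EGFP 8-cell embryos to 0.712 and 0.718 in blastocysts. Of 6 cumulus cell markers 5 lay below 1 FPKM in every library, and Amhr2 was the exception. The part of these shifts in cell identity in the differences of the initiation factor genes was not tested.

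The initiation factor genes were among the well expressed genes of these embryos. Of the 53 genes, 45 reached 10 FPKM and 22 reached 100 FPKM in every library, and 52 could be tested in both comparisons. The gene left out, Eif2c5, has the name of an Argonaute and is a non-coding gene in RefSeq. It was at 0 in 7 libraries and at 0.0349 FPKM in blastocyst replicate 2. The gene of highest mean was Eif2s2 (the beta subunit of eIF2) at 663 FPKM over the 8 libraries, followed by Eif5a at 586 and Eif3c at 526. Summed over its 14 genes, eIF3 gave 3224 ± 62.9 FPKM (SD, n = 3) in EGFP 8-cell embryos. It gave 3069 ± 307 (n = 3) in p150DN embryos and 3026 ± 126 (n = 2) in blastocysts. This sum counts 1 measurement under both Eif3j1 and Eif3j2 (71.8 and 71.9 FPKM on average in EGFP 8-cell embryos). The sum of the 7 genes with eIF2 names was 846 ± 46.7, 913 ± 135 and 1139 ± 66.5 FPKM in the same order. It includes Eif2a, Eif2d and Eif2c5, which are not part of the trimer, and Eif2d gave 30.4, 48.0 and 99.4 FPKM of it. The sum of the eIF2B genes was 356 ± 4.7, 295 ± 20.2 and 296 ± 2.04 FPKM. In the heatmap of levels, the rows differ from each other far more than the libraries differ within a row.

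**Figure D1:**
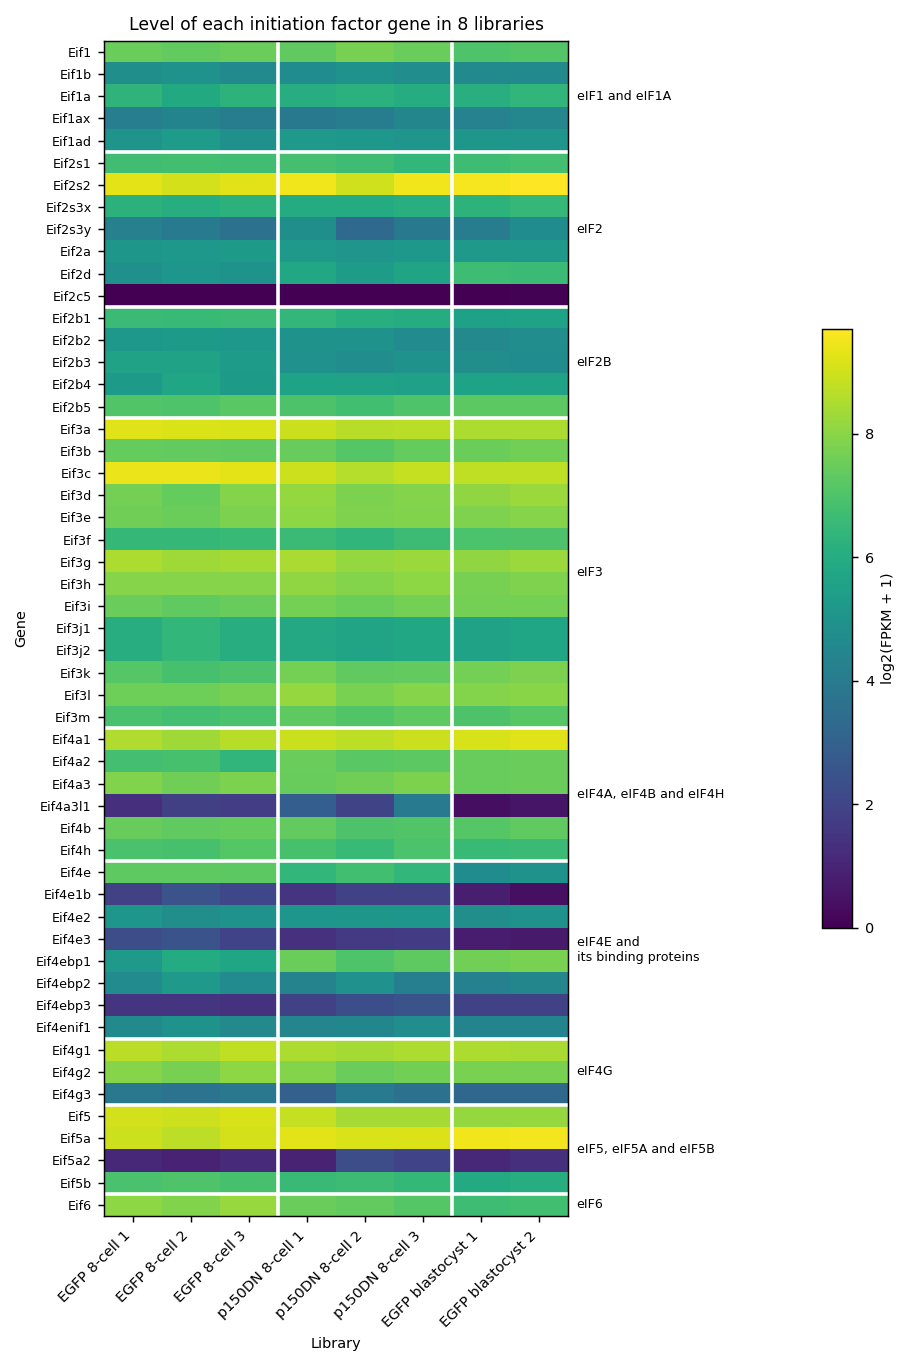
Level of each of the 53 genes (rows, grouped by factor) in each of the 8 libraries (columns), as log2(FPKM + 1). Eif2s2, Eif3a, Eif3c, Eif5 and Eif5a are bright in all columns, Eif2c5 is dark in all, and Eif4e darkens from left to right while Eif4ebp1 brightens.

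Promoters were described for the member with the largest difference between stages, Eif4e, and for called members that share a motif with it. The windows of RefSeq (GRCm38.p6) run from 250 bases before to 50 bases after an annotated start. They covered 41 of the 53 members in 53 windows, and none was at hand for Eif4ebp1, Eif6 or Eif2b3. The windows were searched on both strands for CACGTG, the E-box read by factors such as MYC and USF1, and for TGACGTCA, the cAMP response element. The E-box was in 12 member windows (22.6%) of 10 members, against 7.15% of all 32851 windows. TGACGTCA was in 0 member windows, against 1.79% of all windows. Windows of the same gene can overlap and hold the same site, as for Eif5a. The base composition of member windows was not compared with that of all windows, and the difference between the shares was not tested. A match is a description of the sequence, and no binding was measured. Eif4e (chr3:138526191-138559696) has 2 annotated starts. The 250 bases before the second of them, chr3:138527018-138527267 on the plus strand, held 2 E-boxes, in capitals:
Eif4e: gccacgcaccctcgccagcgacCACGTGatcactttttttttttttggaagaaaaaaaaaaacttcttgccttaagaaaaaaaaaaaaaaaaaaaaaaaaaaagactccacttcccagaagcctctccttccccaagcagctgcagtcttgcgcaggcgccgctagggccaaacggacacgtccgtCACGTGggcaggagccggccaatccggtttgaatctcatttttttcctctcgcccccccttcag
The E-boxes began 228 and 64 bases before that start. The window of the first start of Eif4e, chr3:138525941-138526240, held no E-box. For comparison, the E-boxes of the other called members with one before a start are given with 20 bases on each side, 5′ to 3′ on the strand of the gene:
Eif3f, chr7:108934327-108934372, plus strand: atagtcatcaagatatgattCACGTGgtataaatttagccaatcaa
Eif3k, chr7:28981907-28981952, minus strand: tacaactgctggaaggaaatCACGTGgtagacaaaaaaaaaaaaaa
Eif4a1, chr11:69672587-69672632, minus strand: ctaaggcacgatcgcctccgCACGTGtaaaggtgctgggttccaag
Eif4h, chr5:134639480-134639525, minus strand: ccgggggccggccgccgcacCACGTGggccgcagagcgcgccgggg
Eif5a, chr11:69920783-69920828, minus strand: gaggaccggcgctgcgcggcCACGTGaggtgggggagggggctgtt
Eif5a, chr11:69921435-69921480, minus strand: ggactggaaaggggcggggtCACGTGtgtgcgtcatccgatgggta
The members that share the letters did not share a direction. As the values given with each factor show, Eif4e was lower in both comparisons and Eif3k higher in both, Eif3f, Eif4a1 and Eif5a were called higher in blastocysts, and Eif4h was called lower there. Eif3a, called lower in both, held its E-box after the annotated start. Eif1b, Eif4g1 and Eif5a2 also held an E-box before a start and were called in neither comparison.

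In p150DN embryos the cap-binding gene Eif4e and the anti-association factor gene Eif6 were lower than in EGFP 8-cell embryos. Also lower were 2 eIF2B subunit genes, the eIF3 core subunit genes Eif3a and Eif3c, Eif3j1, Eif3j2, Eif4e3, Eif5 and Eif5b. The eIF4E inhibitor genes Eif4ebp1 and Eif4ebp3 were higher, as were Eif2d, Eif3k, Eif4a2 and Eif4a3l1. A further inhibitor gene, Eif4ebp2, was lower on average without being called. Differences are on the scale of log2(FPKM + 1), which understates changes of low genes, and a gene was called where limma's Benjamini-Hochberg adjusted p lay below 0.05 over all genes tested. Of the 52 tested members, 6 (11.5%) were called higher, against 24.6% of all 11730 genes tested, and 11 (21.2%) were called lower, against 9.68% of all genes. The other 35 were not called. The median difference of the members was -0.07, against 0.19 over all genes. On that scale 2 members, Eif4ebp1 and Eif4a3l1, were called with a difference of at least 1 and groups that did not overlap, as 13.0% of all genes were. By the ratio of mean FPKM, Eif4ebp3 also passed 2-fold (2.15). The level around which the comparison is centred bears on these counts. Rescaling the libraries by their median of ratios changed the calls over all genes from 2887 higher and 1136 lower to 1753 higher and 2239 lower, and moved the median of all genes from 0.19 to -0.06. It left 2 members called higher and 18 called lower. Without p150DN replicate 3, 2 members were higher and 4 lower, and without EGFP 8-cell replicate 1 the counts were also 2 and 4. The calls of Eif4ebp1, Eif4e and Eif2b3 held in all 17 alternative analyses. Those of Eif3c and Eif6 were lost in 1, with p150DN replicates 2 and 3 left out together. The call of Eif4ebp3, a gene of low FPKM, held in 8 of the 16 alternatives that tested it. No label ties the replicates to separate cultures or litters, so each p-value here reflects variation between libraries that may be technical.

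Blastocysts, the stage at which trophectoderm and inner cell mass have formed, differed from EGFP 8-cell embryos in 29 called members, against 17 for p150DN. Eif4e, its relatives Eif4e1b and Eif4e3, Eif6, Eif5, Eif5b and 3 eIF2B subunit genes were lower, and Eif4ebp1, Eif2d and the helicase genes Eif4a1 and Eif4a2 were higher. Of the 52 tested members, 11 (21.2%) were called higher with limma, against 42.6% of all 12199 genes tested, and 18 (34.6%) were called lower, against 24.9% of all genes. The median difference was -0.13 for the members and 0.28 over all genes. Called with a difference of at least 1 on the log2 scale and no overlap were 8 members (15.4%), against 37.1% of all genes. Median-of-ratios scaling moved the median of all genes to 0.09 and left 5 members higher and 26 lower. Without blastocyst replicate 1, 8 members were higher and 11 lower, and without replicate 2, 7 and 14. Of the 29 calls, 16 held in every alternative that tested the gene, and 0 changed sign in either comparison. Both comparisons use the same 3 EGFP 8-cell libraries as controls, so their values are given side by side and their likeness is not measured.

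**Figure D2:**
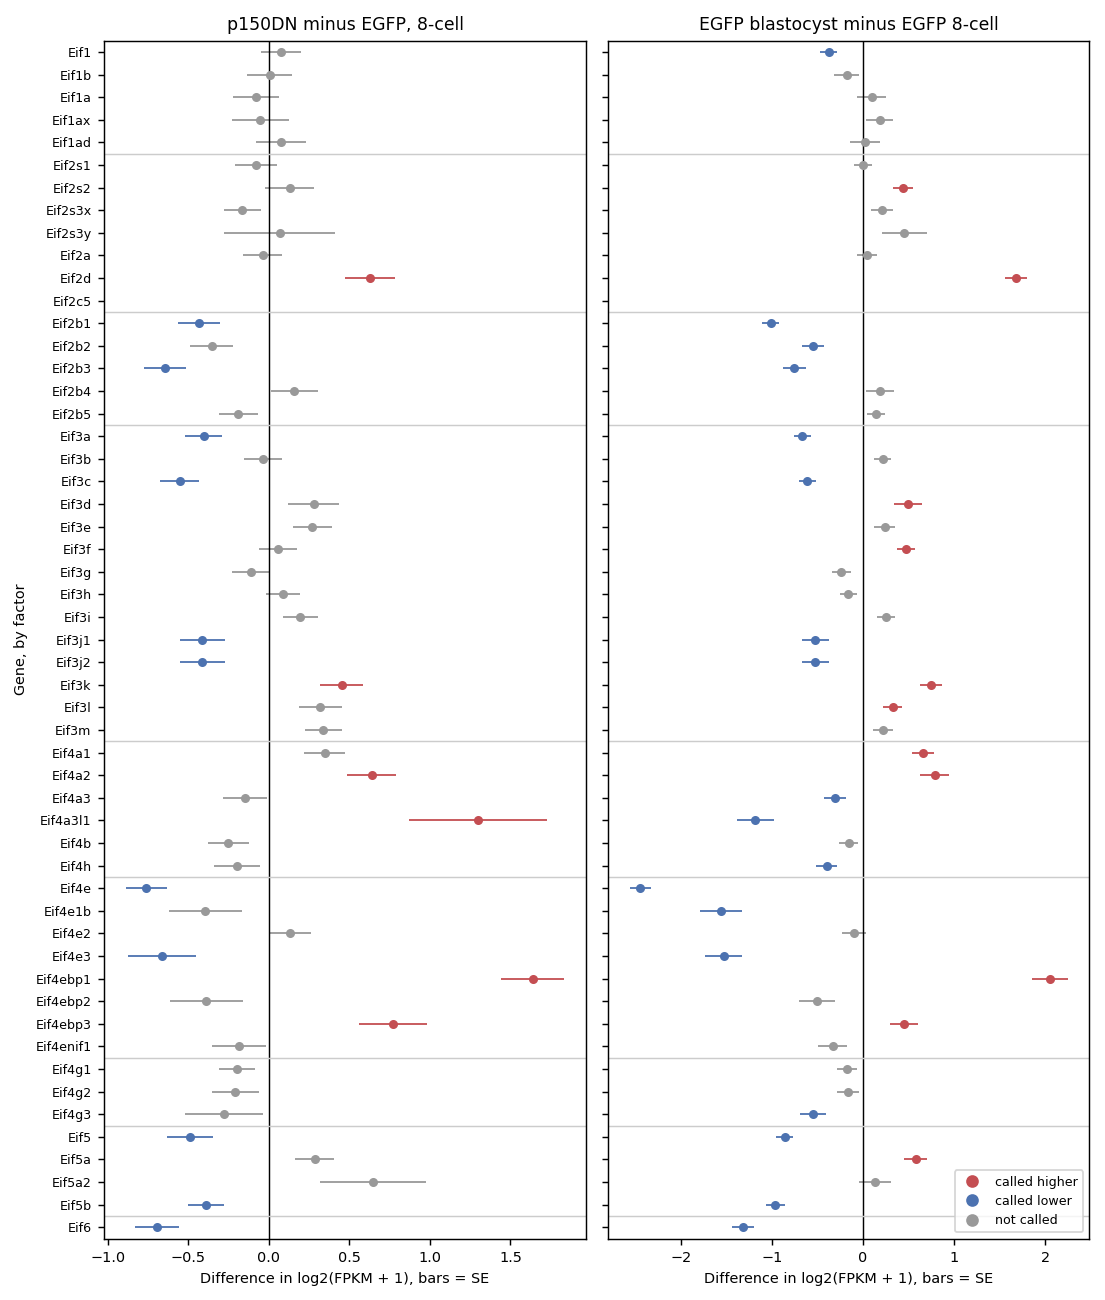
Difference in log2(FPKM + 1) of each tested gene for p150DN minus EGFP 8-cell embryos (left) and for EGFP blastocysts minus EGFP 8-cell embryos (right), with SE as bars, on separate scales. Red is called higher, blue called lower and grey not called, and the points run from -0.76 to 1.64 on the left and from -2.44 to 2.05 on the right.

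Among the cap-binding proteins, Eif4e itself was called in both comparisons. Its FPKM was 155, 157 and 153 in EGFP 8-cell embryos, 84.9, 107 and 83.9 in p150DN embryos, and 24.99 and 30.7 in blastocysts. The groups did not overlap, the p150DN libraries lay between the others, and the EGFP 8-cell libraries were nearly level with one another. The difference was -0.76 ± 0.13 (SE) for p150DN (limma adjusted p = 0.00269) and -2.44 ± 0.12 for blastocysts (limma adjusted p = 1.865e-05). The blastocyst mean was 5.58-fold below that of EGFP 8-cell embryos. These values rest on 2475 to 16550 fragments per library, and the p150DN difference stayed between -1.05 and -0.70 over the alternatives.

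The relatives of Eif4e did not move as a block. Eif4e2, which encodes the cap-binding repressor 4EHP, had 33.2, 26.9 and 30.9 FPKM in EGFP 8-cell embryos, 33.1, 33.8 and 32.9 in p150DN embryos, and 27.0 and 29.4 in blastocysts. It was not called in either comparison, with 95% intervals of -0.16 to 0.43 for p150DN and -0.41 to 0.22 for blastocysts. In blastocysts, the mean of Eif4e2 was close to that of Eif4e (28.2 and 27.8 FPKM on average), where Eif4e had been at 155 against 30.3 FPKM in EGFP 8-cell embryos.

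Eif4e3, a further eIF4E relative, was low throughout, at 3.88, 4.62 and 2.86 FPKM in EGFP 8-cell embryos, 1.64, 2.10 and 2.28 in p150DN embryos, and 0.658 and 0.619 in blastocysts. The groups did not overlap, and both differences were called lower (-0.66 ± 0.21, limma adjusted p = 0.0391, and -1.53 ± 0.20, limma adjusted p = 0.000601). The p150DN call held in 8 of 16 alternatives. Eif4e1b, the eIF4E relative of the oocyte, had 2.77, 4.56 and 3.33 FPKM in EGFP 8-cell embryos, 1.79, 2.81 and 2.77 in p150DN embryos, and 0.758 and 0.316 in blastocysts. It was called lower in blastocysts (-1.56 ± 0.23, limma adjusted p = 0.000934), while the p150DN libraries overlapped the controls (limma adjusted p = 0.204). Blastocyst values of these genes rest on 15 to 35 fragments. Beside them, the FPKM of 6 oocyte markers was summed. The sum was 64.3 to 79.5 in EGFP 8-cell embryos, 30.9 to 62.7 in p150DN embryos and 16 to 23.3 in blastocysts. Within that list Ooep went the other way in blastocysts, with 14.7 and 8.55 FPKM against 2.09 to 3.7 in EGFP 8-cell embryos. In p150DN embryos Gdf9 (10.2 to 23.7 FPKM, against 22.1 to 25.1), Zp3 and Bmp15 overlapped the controls. The part of remaining maternal RNA in the differences of Eif4e3 and Eif4e1b was not tested.

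The gene of the eIF4E inhibitor 4E-BP1, Eif4ebp1 (chr8:27260327-27275656), went the other way. Its FPKM was 37.3, 60.9 and 50.9 in EGFP 8-cell embryos, 181, 129 and 155 in p150DN embryos, and 197 and 212 in blastocysts. No groups overlapped, and the highest EGFP 8-cell library was below the lowest p150DN library. The difference was 1.64 ± 0.20 for p150DN (limma adjusted p = 0.000696) and 2.05 ± 0.20 for blastocysts (limma adjusted p = 0.000146), with means 3.12-fold and 4.12-fold above that of EGFP 8-cell embryos. Among the members this was the largest rise on the log2(FPKM + 1) scale in both comparisons, while the fall of Eif4e in blastocysts was larger in size (-2.445). By the ratio of mean FPKM, Eif4a3l1 was further up in p150DN (3.69-fold), and without p150DN replicate 2 it also led on the log2 scale (1.78, against 1.76 for Eif4ebp1). The range of Eif4ebp1 over the alternatives was 1.35 to 1.88 and 1.75 to 2.21.

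Set against each other within a library, Eif4ebp1 and Eif4e exchanged their order in FPKM. The FPKM of Eif4ebp1 divided by that of Eif4e was 0.240, 0.387 and 0.333 in EGFP 8-cell embryos, 2.14, 1.21 and 1.85 in p150DN embryos, and 7.89 and 6.92 in blastocysts. Eif4e was the higher of the pair in all 3 EGFP 8-cell libraries and the lower in the other 5. A ratio within a library does not depend on how libraries are scaled to one another. Which gene is the higher does depend on the inferred gene lengths, 5115 bases for Eif4e and 981 for Eif4ebp1. In fragments, not divided by length, Eif4e was still the higher in p150DN embryos (8849, 10668 and 7114, against 3624, 2476 and 2522). These are mRNA levels, and neither the proteins nor the phosphorylation that releases 4E-BP1 from eIF4E was measured. The sums of trophectoderm, pluripotency and oocyte markers moved between the same groups, and their part in this ratio was not tested.

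**Figure D3:**
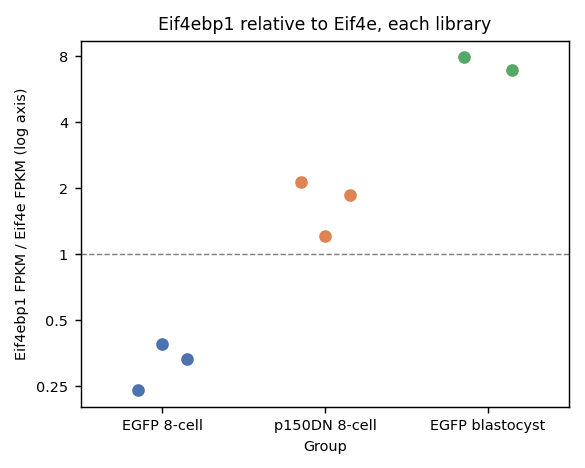
FPKM of Eif4ebp1 divided by FPKM of Eif4e in each library (points) on a log axis, with a dashed line at 1. EGFP 8-cell libraries lie at 0.240 to 0.387, p150DN libraries at 1.21 to 2.14 and blastocyst libraries at 6.92 and 7.89.

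The other genes of eIF4E-binding proteins were lower in abundance. Eif4ebp2 (4E-BP2) had 24.9, 36.3 and 24.5 FPKM in EGFP 8-cell embryos, 19.3, 28.9 and 17.1 in p150DN embryos, and 18.1 and 21.0 in blastocysts, and was called in neither comparison (limma adjusted p = 0.212 and 0.0519). Eif4ebp3 (4E-BP3) had 1.84, 1.72 and 1.71 FPKM in EGFP 8-cell embryos, 2.69, 4.04 and 4.56 in p150DN embryos, and 2.78 and 2.74 in blastocysts. It was called higher in both, by 0.77 ± 0.21 and 0.45 ± 0.16 (limma adjusted p = 0.0213 and 0.0364), from 38 to 91 fragments per library. Those calls held in 8 of 16 and 3 of 14 alternatives. Eif4enif1, which encodes the eIF4E transporter 4E-T, lay between 19.9 and 30.9 FPKM and was not called.

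**Figure D4:**
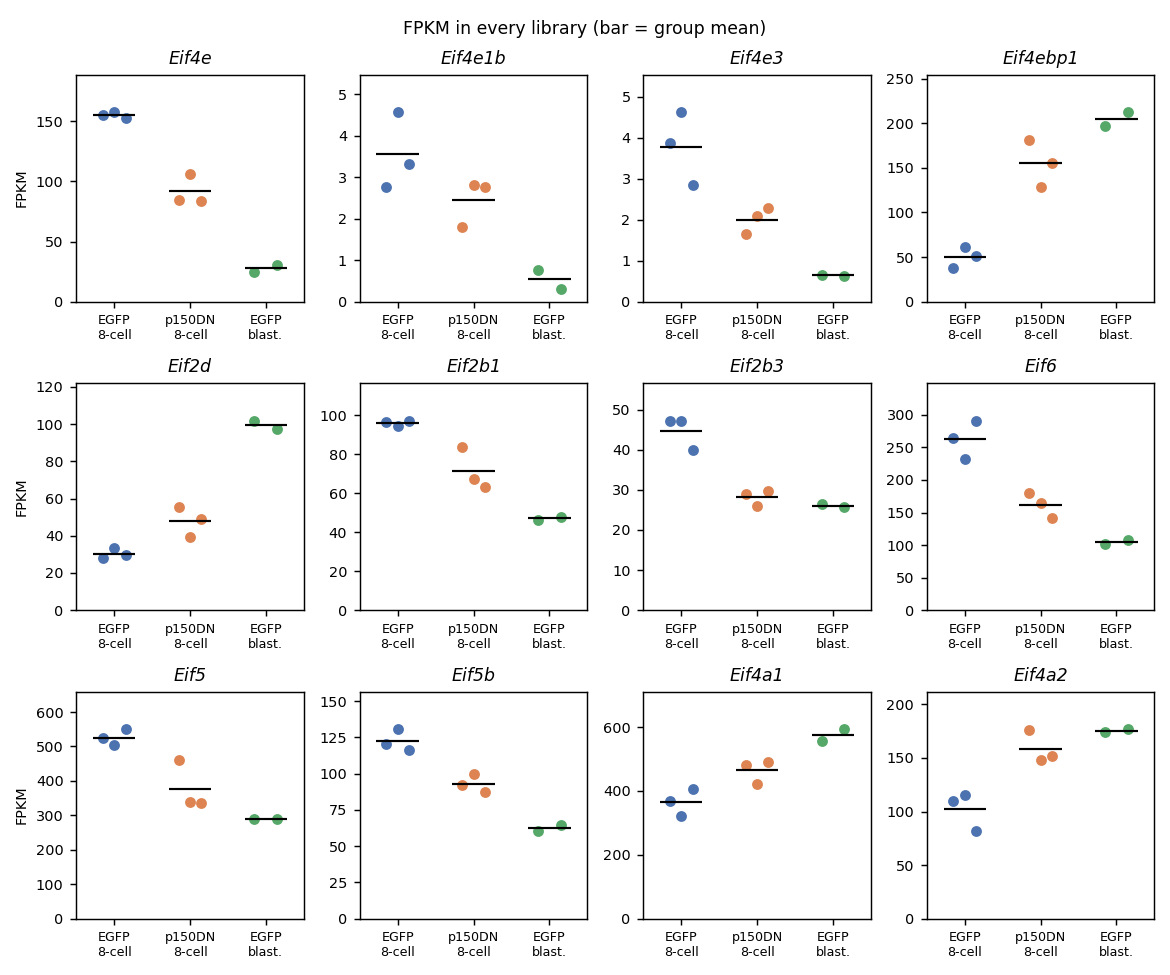
FPKM of 12 members in each library (points) with the group mean (bar), each panel on its own linear axis from 0. Eif4e, Eif4e3, Eif2b1, Eif2b3, Eif6, Eif5 and Eif5b are lower in both other groups than in EGFP 8-cell embryos with no overlap, and Eif4ebp1, Eif2d, Eif4a1 and Eif4a2 are higher with no overlap, although the p150DN difference of Eif4a1 was not called.

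The eIF4A helicases unwind the 5′ end of the mRNA, and their genes parted by paralogue. Eif4a1, the most abundant, had 369, 322 and 406 FPKM in EGFP 8-cell embryos, 483, 420 and 489 in p150DN embryos, and 556 and 592 in blastocysts. It was called higher in blastocysts (0.66 ± 0.12, limma adjusted p = 0.00271) and, although its p150DN libraries all lay above the controls, not in p150DN (0.35 ± 0.13, limma adjusted p = 0.0627). Eif4a2 had 110, 115 and 81.98 FPKM in EGFP 8-cell embryos, 176, 148 and 151 in p150DN embryos, and 174 and 177 in blastocysts. It was called higher in both (0.64 ± 0.15, limma adjusted p = 0.0125, and 0.79 ± 0.16, limma adjusted p = 0.00365), and its p150DN call was lost only under the 2 median-of-ratios scalings. Eif4a1 stayed the more abundant in every library, with Eif4a2 at 0.202 to 0.365 of its level.

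Eif4a3, the helicase of the exon junction complex, which marks spliced mRNA, did not follow them. Its FPKM was 234, 191 and 223 in EGFP 8-cell embryos, 172, 190 and 223 in p150DN embryos, and 171 and 176 in blastocysts. It was called lower in blastocysts by a narrow margin (-0.31 ± 0.12, limma adjusted p = 0.0492, called in 7 of 15 alternatives) and overlapped in p150DN. Eif4a3l1, an Eif4a3-like gene, had 1.496, 2.58 and 2.37 FPKM in EGFP 8-cell embryos, 6.40, 2.93 and 14.4 in p150DN embryos, and 0.296 and 0.452 in blastocysts. It was the sole member called higher in one comparison (1.30 ± 0.43, limma adjusted p = 0.0449) and lower in the other (-1.18 ± 0.21, limma adjusted p = 0.00204). The p150DN libraries of Eif4a3l1 ran from 2.93 to 14.4 FPKM, the p150DN call held in 6 of 16 alternatives, and 9 to 376 fragments lay behind each value. How fragments that match several genes were counted is not stated in the labels or headers, so the split between genes of like sequence is uncertain. The likeness of Eif4a3l1 and Eif4a3 was not measured. In blastocysts Eif4a3l1 had 9 and 16 fragments beside 4851 and 5778 of Eif4a3. Of the helicase cofactors, Eif4h was called lower in blastocysts (-0.40 ± 0.11, limma adjusted p = 0.0166) and Eif4b in neither comparison.

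Of the eIF4G scaffold genes, 0 of 3 were called in p150DN embryos and 1 of 3 in blastocysts, against 34.3% and 67.5% of all genes. Eif4g1 had 418, 367 and 436 FPKM in EGFP 8-cell embryos, 359, 337 and 365 in p150DN embryos, and 367 and 349 in blastocysts. Eif4g2 (DAP5, which lacks the eIF4E-binding part) had 241, 210 and 263 FPKM, then 241, 179 and 200, then 212 and 211. Neither was called, with differences between -0.21 and -0.16. Eif4g3, a paralogue of Eif4g1, had 13.7, 11.9 and 13.8 FPKM in EGFP 8-cell embryos, 6.94, 14.6 and 11.7 in p150DN embryos, and 8.55 and 8.68 in blastocysts, and was called lower in blastocysts (-0.55 ± 0.14, limma adjusted p = 0.0108).

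The subunits of eIF2, which brings the initiator tRNA, gave 0 calls among the 4 trimer genes in p150DN embryos and 1 in blastocysts. Over all genes, 34.3% and 67.5% were called in these comparisons. Eif2s2 (beta) had 623, 537 and 606 FPKM in EGFP 8-cell embryos, 717, 516 and 718 in p150DN embryos, and 759 and 830 in blastocysts, and was called higher in blastocysts (0.43 ± 0.11, limma adjusted p = 0.0101). That call was lost under both median-of-ratios scalings (differences of 0.20 and 0.13) and without blastocyst replicate 2. Eif2s1 (alpha, the subunit phosphorylated under stress) lay between 85.1 and 113 FPKM in all libraries, with a 95% interval of -0.38 to 0.21 for p150DN and -0.23 to 0.23 for blastocysts. Eif2s2 was the more abundant of the pair in every library.

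The gamma subunit has an X-linked and a Y-linked gene in mice. Eif2s3x had 73.5, 64.7 and 75.0 FPKM in EGFP 8-cell embryos, 62.3, 61.1 and 66.3 in p150DN embryos, and 77.1 and 87.2 in blastocysts. Eif2s3y had 17.9, 14.9 and 11.1 FPKM, then 27.2, 8.999 and 14.0, then 16.1 and 25.03. Neither was called. The Y-linked gene was highest in p150DN replicate 1, where the Y-linked Ddx3y was also highest of the p150DN libraries (27.7 FPKM, against 11.4 and 13.5), as was Uty (3.94, against 1.22 and 2.09), but not Kdm5d (1.69, against 0.458 and 1.76). Xist, expressed in female cells, was lowest there (2.84 FPKM, against 39.2 and 49.6). The part of embryo sex in the other differences was not tested.

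Eif2d (chr1:131153172-131187659) encodes eIF2D, a factor outside the eIF2 trimer that can deliver tRNA to the ribosome and acts in recycling. Its FPKM was 28.3, 33.5 and 29.4 in EGFP 8-cell embryos, 55.6, 39.3 and 49.1 in p150DN embryos, and 102 and 97.2 in blastocysts. The groups did not overlap, with p150DN between the other groups. It was called higher in both comparisons, by 0.63 ± 0.16 (limma adjusted p = 0.0146) and 1.68 ± 0.12 (limma adjusted p = 4.822e-05). The blastocyst call held in all 15 alternatives, and the p150DN call was lost in 4 of 17. Median-of-ratios scaling with factors from all genes or from the tested genes reduced the p150DN difference to 0.35 and 0.42 (limma adjusted p = 0.18 and 0.0804). Without EGFP 8-cell replicate 1 or p150DN replicate 3 it was 0.58 and 0.61 (limma adjusted p = 0.0601 and 0.0549). Eif2a, which encodes the unrelated factor eIF2A, stayed between 32.2 and 38.0 FPKM in all libraries.

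The genes of eIF2B, the exchange factor of eIF2, split by subunit. Eif2b3 (gamma, chr4:117019399-117086852) had 47.2, 47.1 and 40.1 FPKM in EGFP 8-cell embryos, 29.0, 25.9 and 29.8 in p150DN embryos, and 26.5 and 25.6 in blastocysts. The highest p150DN library was below the lowest control. The differences were -0.65 ± 0.13 (limma adjusted p = 0.00643) and -0.75 ± 0.12 (limma adjusted p = 0.00143). Eif2b1 (alpha) had 96.7, 94.7 and 97.2 FPKM in EGFP 8-cell embryos, 83.9, 67.4 and 63.1 in p150DN embryos, and 46.2 and 48.0 in blastocysts, and was called lower in both (-0.43 ± 0.13, limma adjusted p = 0.033, and -1.01 ± 0.10, limma adjusted p = 0.000138). Its p150DN call held in 10 of 17 alternatives.

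The other 3 eIF2B genes differed from these. Eif2b2 (beta) was called lower in blastocysts (-0.55 ± 0.12, limma adjusted p = 0.00562), and its p150DN libraries lay below the controls without being called (-0.36 ± 0.13, limma adjusted p = 0.0676). Eif2b5, the catalytic epsilon subunit and the most abundant, had 134, 129 and 147 FPKM in EGFP 8-cell embryos, 125, 106 and 128 in p150DN embryos, and 151 and 150 in blastocysts, and was called in neither. Eif2b4 (delta) lay between 37.7 and 51.7 FPKM and was called in neither, with a positive difference in both (0.16 and 0.18).

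eIF1 and eIF1A hold the small subunit in its scanning form. In p150DN embryos 0 of their 5 genes were called, against 34.3% of all genes, and their differences ran from -0.08 to 0.08. Eif1 had 177, 166 and 177 FPKM in EGFP 8-cell embryos, 161, 208 and 180 in p150DN embryos, and 131 and 135 in blastocysts, and was called lower in blastocysts (-0.37 ± 0.09, limma adjusted p = 0.00997). Its paralogue Eif1b was lower in abundance, at 27.3, 30.1 and 23.7 FPKM, then 25.5, 29.6 and 26.1, then 23.4 and 24.0. The autosomal gene Eif1a had 77.5, 58.7 and 77.2 FPKM in EGFP 8-cell embryos, 64.4, 72.1 and 63.8 in p150DN embryos, and 68.6 and 82.8 in blastocysts. It exceeded the X-linked Eif1ax, at 16.8, 19.8 and 16.1, then 14.1, 16.2 and 20.9, then 18.5 and 21.7 FPKM, by 2.96 to 4.78 times in every library. Eif1ad, whose product has an eIF1A domain, was present under 1 symbol and lay between 27.9 and 40.0 FPKM. The groups of these last 4 genes overlapped in both comparisons.

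In eIF3, the genes of the core subunits a and c were lower in both comparisons and the gene of subunit k was higher in both. For p150DN 1 of the 14 genes was called higher and 4 lower, against 24.6% and 9.68% of all genes, with Eif3j1 and Eif3j2 counted separately. For blastocysts 4 were higher and 4 lower, against 42.6% and 24.9% of all genes. The sum over the complex therefore covers calls in both directions. Eif3c had 685, 674 and 627 FPKM in EGFP 8-cell embryos, 501, 396 and 462 in p150DN embryos, and 433 and 431 in blastocysts. Eif3a had 592, 572 and 558 FPKM, then 487, 406 and 412, then 361 and 361. All p150DN and blastocyst libraries lay below the controls for both genes. Eif3c differed by -0.55 ± 0.12 in p150DN and -0.61 ± 0.09 in blastocysts (limma adjusted p = 0.00907 and 0.00109). Eif3a differed by -0.40 ± 0.11 and -0.67 ± 0.09 (limma adjusted p = 0.0249 and 0.000629), and its p150DN call held in 10 of 17 alternatives.

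Eif3k, a small peripheral subunit, had 139, 115 and 125 FPKM in EGFP 8-cell embryos, 201, 158 and 163 in p150DN embryos, and 203 and 222 in blastocysts, with no overlap. It was called higher in both (0.45 ± 0.13, limma adjusted p = 0.0299, and 0.75 ± 0.12, limma adjusted p = 0.00116), and the p150DN call held in 9 of 17 alternatives. In blastocysts Eif3d, Eif3f and Eif3l were also called higher, by 0.49, 0.47 and 0.33, and all 3 of these calls were lost under median-of-ratios scaling. Eif3d encodes a subunit that can bind the cap itself. Eif3b, Eif3e, Eif3g, Eif3h, Eif3i and Eif3m were called in neither comparison, with differences between -0.24 and 0.34.

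Eif3j1 and Eif3j2, copies of the gene of the loosely bound j subunit, had the same number of fragments in 7 libraries and differed by 1 in blastocyst replicate 2, so they count as 1 measurement that cannot be assigned to either copy. The FPKM of Eif3j1 was 65.1, 84.6 and 65.6 in EGFP 8-cell embryos, 56.4, 49.6 and 54.1 in p150DN embryos, and 47.2 and 51.4 in blastocysts. Both were called lower for p150DN (-0.41 ± 0.14, limma adjusted p = 0.048) and for blastocysts (-0.52 ± 0.14, limma adjusted p = 0.0151). With the pair counted once, 10 measurements were lower for p150DN and 17 for blastocysts. The p150DN call held in 6 of 17 alternatives.

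**Figure D5:**
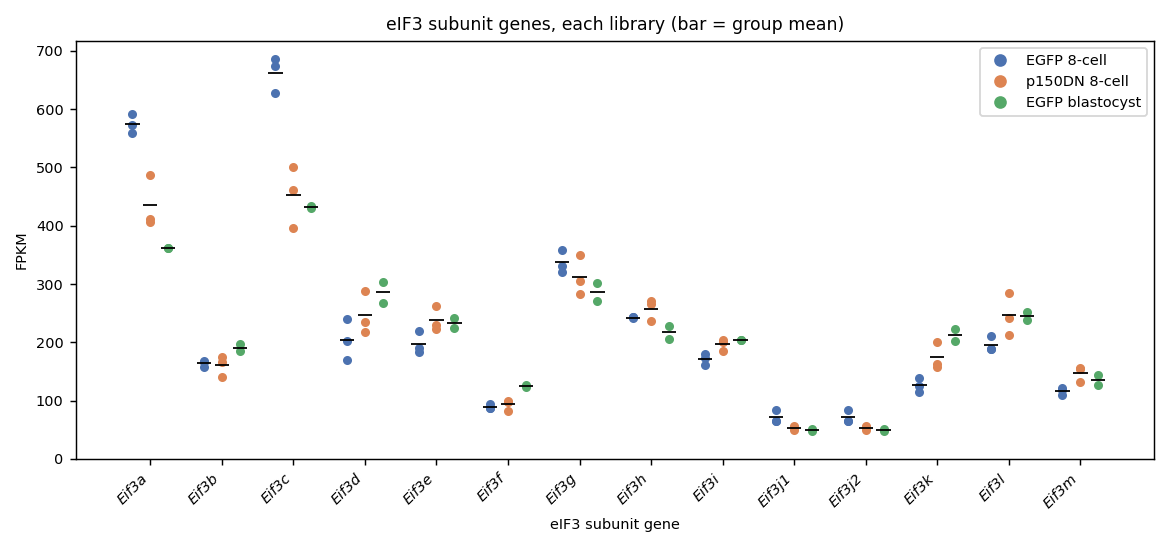
FPKM of the 14 eIF3 subunit genes in each library (points) with the group mean (bar). Eif3a and Eif3c drop from 574 and 662 FPKM on average in EGFP 8-cell embryos to 361 and 432 in blastocysts, while Eif3k goes from 127 to 212.

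Of the genes for the last steps, Eif5, Eif5b and Eif6 were lower in both comparisons and the eIF5A genes were not. Eif6 (chr2:155819837-155826925) had 265, 232 and 291 FPKM in EGFP 8-cell embryos, 180, 165 and 141 in p150DN embryos, and 101 and 108 in blastocysts. The groups did not overlap. It differed by -0.70 ± 0.14 in p150DN (limma adjusted p = 0.00538) and -1.31 ± 0.12 in blastocysts (limma adjusted p = 0.000128). Eif5, the gene of the GTPase activator of eIF2, had 523, 504 and 550 FPKM, then 460, 338 and 335, then 289 and 289. It was called lower in both (-0.49 ± 0.14, limma adjusted p = 0.0278, and -0.86 ± 0.09, limma adjusted p = 0.000241).

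Eif5b, the gene of the subunit-joining GTPase, had 121, 131 and 116 FPKM in EGFP 8-cell embryos, 92.0, 100 and 87.6 in p150DN embryos, and 60.3 and 64.4 in blastocysts. It was called lower in both (-0.39 ± 0.11, limma adjusted p = 0.0273, and -0.96 ± 0.10, limma adjusted p = 0.000241). The blastocyst calls of Eif5, Eif5b and Eif6 held in all 15 alternatives. The p150DN calls of Eif5 and Eif5b held in 10 and 11 of 17.

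Eif5a, whose product carries hypusine and also serves elongation and termination, had 497, 425 and 541 FPKM in EGFP 8-cell embryos, 625, 568 and 582 in p150DN embryos, and 718 and 731 in blastocysts. The groups did not overlap. It was called higher in blastocysts (0.58 ± 0.12, limma adjusted p = 0.00502) and not in p150DN (0.28 ± 0.12, limma adjusted p = 0.103), and the blastocyst call was lost under both median-of-ratios scalings. Its paralogue Eif5a2 was low, at 1.19, 0.925 and 1.31 FPKM, then 0.938, 3.93 and 2.92, then 1.13 and 1.56, and was called in neither comparison.

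Regulators and partners of initiation outside the Eif symbols moved in part. Of 29 listed genes 28 could be tested, and with limma 2 were called higher and 5 lower for p150DN, against 24.6% and 9.68% of all genes. For blastocysts 6 were called higher and 10 lower, against 42.6% and 24.9% of all genes. Their medians were -0.10 and -0.20. Paip2b, which encodes an inhibitor of the poly(A)-binding protein, fell by 1.49 ± 0.15 in p150DN embryos (limma adjusted p = 0.000395) and by 2.81 ± 0.13 in blastocysts (limma adjusted p = 1.752e-05), from a mean of 143 FPKM to 50.5 and 19.5. Abcf1, whose product associates with eIF2, differed by -1.02 ± 0.12 and -1.25 ± 0.11 (limma adjusted p = 0.000573 and 9.212e-05). Pdcd4, the gene of an inhibitor of eIF4A, was higher by 1.31 ± 0.18 and 1.78 ± 0.19 (limma adjusted p = 0.00125 and 0.000241), from a mean of 5.92 FPKM to 16.0 and 22.4.

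Some genes of kinases and phosphatase partners that act on the members were also called. Rptor, the gene of the subunit through which mTORC1 binds 4E-BP1, was higher by 0.70 ± 0.18 and 1.29 ± 0.17 (limma adjusted p = 0.0172 and 0.000552), and Mtor was called higher in blastocysts (0.73 ± 0.16, limma adjusted p = 0.00615). Mknk1, which encodes a kinase of eIF4E, differed by -0.86 ± 0.20 and -1.05 ± 0.14 (limma adjusted p = 0.0115 and 0.000619). Mknk2, the gene of the other eIF4E kinase, was more abundant, with means of 18.07, 25.68 and 14.23 FPKM against 13.23, 6.995 and 5.87. It was called in neither comparison (0.45 ± 0.22 and -0.32 ± 0.16, limma adjusted p = 0.146 and 0.122). Rps6kb1, Rps6kb2 and Eif2ak3 were also called in neither, and Mtor, Eif2ak4, Ppp1r15a and Ppp1r15b were not called for p150DN. Eif2ak1, the gene of the heme-regulated eIF2 kinase, differed by -0.53 ± 0.15 and -0.86 ± 0.14 (limma adjusted p = 0.0229 and 0.00163). In blastocysts the general control kinase gene Eif2ak4 was higher by 0.82 ± 0.24 (limma adjusted p = 0.0202). There the genes that direct the eIF2 phosphatase, Ppp1r15a and Ppp1r15b, were lower (-0.71 ± 0.24 and -1.24 ± 0.18, limma adjusted p = 0.0347 and 0.000802).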

How the data were processed

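The authors deposited FPKM values per library and gene symbol, per the file headers. Per the labels, the stranded SMART-seq kit was applied to total RNA, and the submitters' processing notes name Bowtie2, HISAT2, SAMtools, featureCounts, Trim Galore and the build mm10. No annotation or strand setting is given in the sources used here. Values of overlapping or antisense genes are therefore uncertain. The 8-cell columns with no treatment in their names were taken as EGFP 8-cell. Fragments were inferred from FPKM, with the total of each library taken from the commonest product of FPKM and length among short RNA genes. Gene length was taken as the shortest that gave whole fragments in all 8 libraries, within 0.02 fragments or slightly more for large counts. Differences were tested with limma 3.58.1 in R 4.3.3 (trended eBayes, two-sided) on log2(FPKM + 1), on genes of at least 1 FPKM in 3 libraries (p150DN) or 2 (stages), over all genes, with Benjamini-Hochberg adjustment. The script was tested on simulated data. Coordinates and promoters are RefSeq's, of GRCm38.p6, the assembly of mm10, in which all 53 symbols were found. Protein sequences were not used here. The members and lists were chosen with earlier results of these data known. Values in every library are given for the most abundant member of each factor, for paralogues, for called members with a log2 difference of at least 1 and no overlap and for the 2 smallest adjusted p. Other called members were chosen after their values were seen.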

Additional observations from a re-analysis of the deposited data

How the results depend on the processing

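For p150DN, the count of members called higher (6) became 3 with no filter on low values and 2 under median-of-ratios scaling, whether its factors came from all genes or, chosen after seeing the data, from the tested genes. The count called lower (11) became 5 with no filter, 18 under median-of-ratios scaling, and 3 with p150DN replicates 2 and 3 left out together. Leaving out 1 library at a time gave 2 to 8 higher and 4 to 7 lower. The counts fell to 2 higher without EGFP 8-cell replicate 1 or p150DN replicate 3, and to 4 lower without either of these or EGFP 8-cell replicate 2. For blastocysts, the count called higher (11) became 5 under both median-of-ratios scalings, and the count called lower (18) became 28 with factors from the tested genes. Leaving out 1 library gave 7 to 11 higher, the lowest without blastocyst replicate 2, and 11 to 19 lower, the lowest without blastocyst replicate 1. Over all genes, the blastocyst calls of 5198 higher and 3038 lower became 4289 and 3751 under median-of-ratios scaling and 3997 and 3902 under quantile normalization, which gave 1748 and 1827 for p150DN. The cause of these shifts was not tested, although a fit with fewer libraries has fewer degrees of freedom. Of the fold changes of called members under all alternatives, 195 of 286 (p150DN) and 382 of 431 (blastocysts) stayed called and the others kept their direction. Of members not called, 19 of 35 and 13 of 23 changed sign in some alternative. With the replicate block, 8 members were higher and 8 lower for p150DN, and 10 and 17 for blastocysts. Same-numbered libraries correlated in their deviations by 0.036 to 0.089 (p150DN) and by -0.034 and -0.029 (blastocysts). Differently numbered EGFP 8-cell and p150DN libraries correlated by -0.105 to 0.07. Deviations from the mean of 2 or 3 libraries are tied to each other, so these values cannot show whether the numbers pair the libraries. EGFP 8-cell replicate 3 correlated more with p150DN replicate 1 than with its own number. The blastocyst values of Eif4e1b, Eif4e3 and Eif4a3l1 rest on 9 to 35 fragments, so counting error is large there.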

Other observations

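The factors of the later steps of translation were described by lists chosen with earlier results known. Of 9 listed elongation factor genes 8 were tested with limma, and 3 were called higher and 0 lower for p150DN, with 6 higher and 0 lower for blastocysts. Over all genes 24.6% and 42.6% were called higher, and 9.68% and 24.9% were called lower. Their median differences were 0.45 and 0.48, against 0.19 and 0.28 over all genes. Eef1a1, which encodes the protein that carries aminoacyl-tRNA, had a mean of 819 FPKM in EGFP 8-cell embryos, 1310 in p150DN embryos and 1809 in blastocysts (0.67 ± 0.13 and 1.145 ± 0.11, limma adjusted p = 0.00447 and 0.000139). Eef1b2, a subunit of its exchange factor, had 212, 365 and 310 FPKM in the same order (limma adjusted p = 0.00185 and 0.00403), and Eef1g, a further subunit, had 246, 365 and 443 (limma adjusted p = 0.00709 and 0.000673).

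Of 5 termination and ribosome rescue genes, 1 was called higher for p150DN and 2 for blastocysts. These counts are near the shares called higher over all genes (24.6% and 42.6%). In both comparisons 0 were called lower, against 9.68% and 24.9% of all genes. Hbs1l, whose product rescues stalled ribosomes with that of Pelo, had a mean of 2.6 FPKM in EGFP 8-cell embryos, 6.8 in p150DN embryos and 8.79 in blastocysts (limma adjusted p = 0.0031 and 0.000285). Pelo was called higher in blastocysts (0.79 ± 0.20, limma adjusted p = 0.0109). Dohh, which encodes an enzyme that makes hypusine on eIF5A, was also called higher there (0.56 ± 0.14, limma adjusted p = 0.00915). The other hypusination gene was called in neither comparison.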
